A study of Mus musculus with 6 samples.

Results

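The members of the group described here were 10 mouse genes of heterochromatin and the nuclear lamina: the HP1 genes Cbx1, Cbx3 and Cbx5, the histone H3 lysine 9 methyltransferase genes Suv39h1, Suv39h2 and Setdb1, the corepressor gene Trim28, and the lamina genes Lmna, Lmnb1 and Lbr. Every probe of the array that carried one of these gene names and was not a control was taken, which gave 18 of 61307 probes and 10 of 50090 gene names. Cbx1 and Cbx3 had 2 probes each, Cbx5, Suv39h2 and Lmna had 3 each, and the other 5 genes had 1. The study asked how SIRT7, a nucleolar NAD-dependent deacylase, acts on cell form and on chromatin, and HP1 alpha was among the proteins it stained.

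RNA came from 3 lines of NIH3T3 cells, an immortalized mouse embryonic fibroblast line. All 3 had been transduced with a retroviral vector that carries neomycin resistance and had been selected with Geneticin. GFP cells, the control, expressed GFP alone. LT7 cells overexpressed SIRT7 fused to GFP and were long, and ST7 cells carried the same fusion and were small. Both SIRT7 lines were picked from the same kind of confluent culture and grown from single cells, so each is 1 clone, and a difference between lines cannot be told apart from a difference between clones. There were 2 replicates per line, described as different passages, on 6 single-colour arrays, and the p-values therefore measure only the spread between passages of a line.

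HP1 proteins bind methylated lysine 9 of histone H3 through a chromodomain and bring silencing factors to that chromatin. SUV39H1 and SUV39H2 write the mark at pericentromeric repeats, while SETDB1 writes it where the corepressor TRIM28 recruits it to silenced genes and retroelements. Lamins A, B1 and C form the meshwork under the inner nuclear membrane, and the lamin B receptor ties that membrane to HP1 and to peripheral heterochromatin.

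The values are processed signals, the brightness of a probe after the scanner software had subtracted its background, in arbitrary units. The same software marked the probes that were well above background, and a probe without this mark on any array of a group has only an upper limit there. For the tests each array was shifted by its own 75th percentile on the log2 scale. This percentile was between 317 and 384 on the GFP and LT7 arrays and 16.3 and 17.1 on the arrays labelled ST7, so the shift raised every probe by 4.40 log2 units in ST7 against GFP and by 0.098 in LT7 against GFP. The share of probes well above background was 53.5% to 57.5% on the GFP arrays, 47.4% to 47.5% on the LT7 arrays and 25.5% to 26.4% on the arrays labelled ST7. The 2 Sirt7 probes, which check the label, gave 2142 to 3125 in GFP, 2341 to 3633 in LT7 and 2.85 to 3.28, not well above background, on the arrays labelled ST7. For both probes the LT7 values overlapped the GFP values, the signal on the arrays labelled ST7 went against the label, and whether the probes match the SIRT7 construct was not tested. LT7 replicate 1 was read in a scan of its own, and 4 spike-in RNA probes were 4.11 log2 units higher on it than on the mean GFP array. Directions for ST7 below are those of the arrays that carry this label.

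In GFP cells 17 of the 18 member probes carried this mark in both replicates, and the same 17 did so in LT7. On the arrays labelled ST7 only 9 carried it in both replicates, 1 in replicate 2 alone and 8 in neither. Of all probes 22.7% carried it on both ST7 arrays, and 40% of those marked in both GFP replicates. At least 1 such probe was kept in ST7 by 6 genes: Cbx1, Cbx3, Cbx5, Setdb1, Trim28 and Lmna. Suv39h1, Lmnb1 and Lbr, each with a single probe, had none, and Suv39h2 had 1 probe on 1 array. No member spot was marked as an outlier. Only Lmna probe 2 and Lmna probe 3 had saturated spots.

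**Figure D1:**
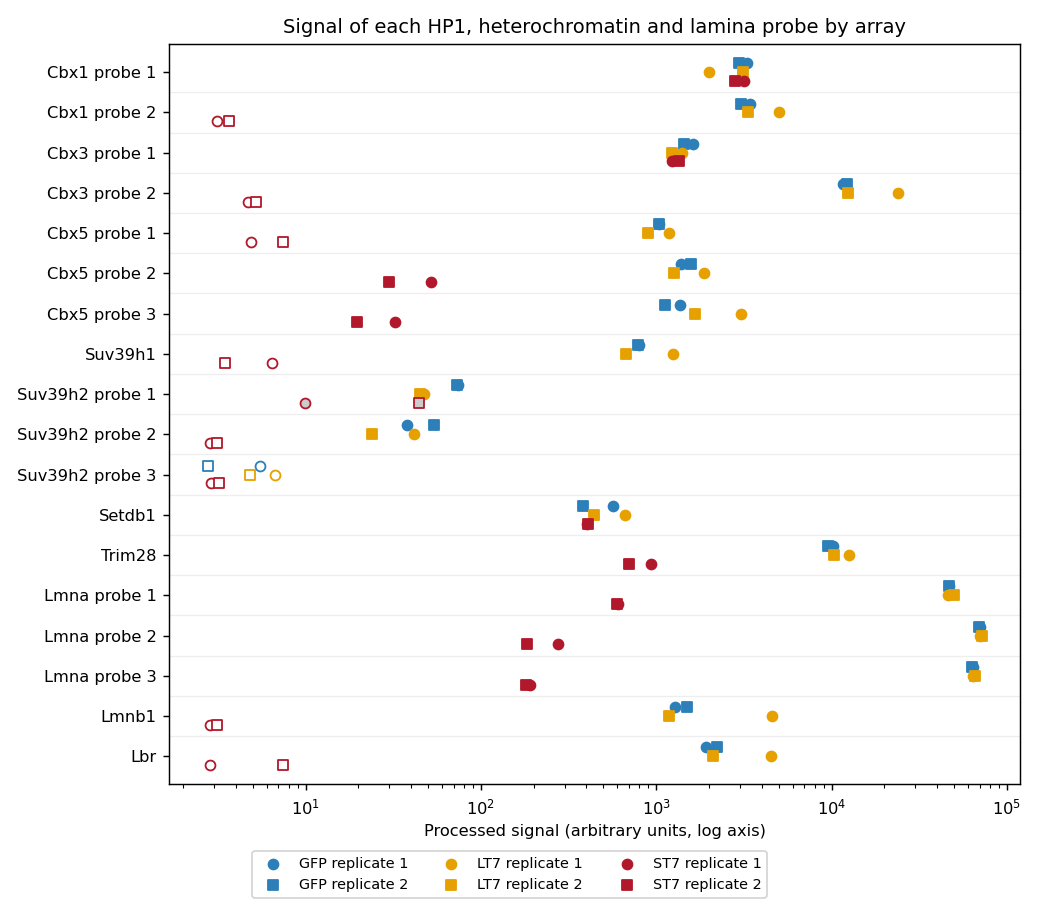
Processed signal (log axis) of each member probe on the 6 arrays. Circles are replicate 1 and squares replicate 2; open symbols mark a probe well above background on no array of that group and grey symbols on 1 array. The arrays labelled ST7 lie at 2.85 to 7.45 for the 7 probes that were well above background in GFP and lost in ST7, and between 19.7 and 3174 for the 9 that were kept.

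Cbx1 encodes HP1 beta, and its 2 probes gave opposite results on the arrays labelled ST7. Probe 1, designed on NM_007622, read 3275 and 2968 on GFP arrays 1 and 2, 2009 and 3123 on those of LT7 and 3174 and 2822 on those labelled ST7. The first ST7 value lay between the GFP values and the second below both, and LT7 replicate 1 was the lowest of the 6. Probe 2, designed on the predicted transcript XM_990359, read 3412 and 3033 on the GFP arrays, 5042 and 3348 on those of LT7 and 3.14 and 3.68 on those labelled ST7. Its signal was thus at the floor of the scanner on both ST7 arrays and far above it on the other 4. After the shift probe 1 was called higher in ST7 than in GFP, with a log2 change of 4.34 (SE 0.31, limma adjusted p = 6.02e-05), while without scaling the change was -0.059 and was not called. Probe 2 was called lower, by at least 10.4-fold relative to the 75th percentile (limma adjusted p = 1.68e-05).

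Cbx3 encodes HP1 gamma, the HP1 protein also found along transcribed genes, and it showed the same split although both probes carry the accession NM_007624. Probe 1 read 1628 and 1440.4 on the GFP arrays, 1402 and 1228 on those of LT7 and 1227 and 1341 on those labelled ST7, so that ST7 lay under both GFP values and beside the LT7 values. Probe 2 read 11610.0 and 12233 on the GFP arrays, 23882 and 12414 on those of LT7 and 4.68 and 5.22 on those labelled ST7. In ST7 probe 1 was called higher after the shift (log2 change 4.14, SE 0.19, limma adjusted p = 1.68e-05), with a change of -0.26 and no call without scaling. Probe 2 was called lower by at least 38.4-fold (limma adjusted p = 1.68e-05), the highest such limit among the members.

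The kept and the lost probe of each of these genes are shown because the same gene name gave a signal near that of GFP from one sequence and none from the other. The Setdb1 probe, whose ST7 values both lay between the GFP values, is shown beside them. Each probe is 60 bases long; of the 2 lost probes only the first 30 bases are printed. Capitals mark every triplet TAA, TAG or TGA, which is a stop codon when it is read in frame, wherever it stands in the sequence.
Cbx1 probe 1, kept: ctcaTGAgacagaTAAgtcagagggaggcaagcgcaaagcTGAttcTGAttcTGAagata
Cbx1 probe 2, lost: gagaataccaaatcttcagatTAAcTGAtg
Cbx3 probe 1, kept: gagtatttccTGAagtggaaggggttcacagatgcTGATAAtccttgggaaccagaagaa
Cbx3 probe 2, lost: atgtggaaaTAGagtcgtggctggagcTGA
Setdb1 probe, kept: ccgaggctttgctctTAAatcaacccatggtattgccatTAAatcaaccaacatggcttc
Read over all 60 bases in the 3 forward frames, Cbx1 probe 1 had 2 frames free of such a triplet, with all 5 of its stop triplets in the second frame. Cbx3 probe 1 had 1 stop-free frame and the Setdb1 probe 2. Cbx1 probe 2 had 1, and Cbx3 probe 2 had none, with 4, 1 and 1 stop triplets in its 3 frames. A stretch that lies wholly in a coding region has at least 1 stop-free frame, so Cbx3 probe 2 cannot lie wholly in one if its strand is that of the transcript. The probes were not placed on a genome here.

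Cbx5 encodes HP1 alpha. Its 3 probes, all designed on NM_007626, read between 1035 and 1570.2 in GFP and were far lower on the arrays labelled ST7. Probe 1 read 1035 and 1036 on the GFP arrays, 1182 and 898 on those of LT7 and 4.88 and 7.45 on those labelled ST7, the last not well above background. Probe 2 read 1376 and 1570.2 on the GFP arrays, 1871 and 1264 on those of LT7 and 52.3 and 29.9 on those labelled ST7. Probe 3, the brightest by its mean over the 6 arrays, read 1373 and 1119 on the GFP arrays, 3052 and 1667 on those of LT7 and 32.4 and 19.7 on those labelled ST7. For each probe both ST7 arrays lay below all 4 others, and replicate 2 was the lower of the pair for probes 2 and 3 and the higher for probe 1. After the shift probe 1 was at least 3.33-fold lower in ST7 (limma adjusted p = 0.000171) and probe 3 was 2.32-fold lower (log2 change -1.22, SE 0.39, limma adjusted p = 0.0279). Probe 2 did not pass, at -0.82 (SE 0.38, limma adjusted p = 0.0911). Without scaling the changes were -7.42, -5.22 and -5.62 for probes 1, 2 and 3, the first of them against ST7 signals not well above background, and all 3 were called lower. The call of probe 3 was lost with quantile normalization (log2 change -0.92), without either GFP replicate (-1.19 and -1.24) and without ST7 replicate 2 (-0.82).

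The position of a probe among others does not depend on a shift common to all. Among the 11084 probes that were well above background throughout, on each of the 6 arrays, Cbx5 probes 2 and 3 stood at percentiles 12.5 and 10.9 of the log2 change in ST7 against GFP, and Cbx1 probe 1 and Cbx3 probe 1 at percentiles 73.8 and 69.1. That set holds only probes that kept their signal in ST7, so Cbx1 probe 2, Cbx3 probe 2 and Cbx5 probe 1 are not in it. Among all probes Cbx1 probe 2 and Cbx3 probe 2 stood at percentiles 4.18 and 1.99, below Cbx5 probes 2 and 3 at 20.3 and 18.6.

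Of the enzymes that write the H3K9 mark, Setdb1 kept its signal in ST7 and Suv39h1 lost it. Setdb1 read 563 and 383 on the GFP arrays, 665 and 444 on those of LT7 and 402 and 406 on those labelled ST7, where both values lay between the GFP values. Suv39h1 read 802 and 789 on the GFP arrays, 1249.8 and 675 on those of LT7 and 6.45 and 3.49 on those labelled ST7. Both ST7 arrays were near the floor and the other 4 far above it. After the shift Setdb1 was called higher in ST7 (log2 change 4.20, SE 0.26, limma adjusted p = 3.51e-05), at percentile 70.4, and without scaling its change was -0.20 with no call. Suv39h1 was called lower by at least 2.56-fold (limma adjusted p = 0.00118).

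Suv39h2, a paralog of Suv39h1, gave the lowest GFP signals of the members, although probes 1 and 2 carried the mark on all 4 GFP and LT7 arrays. Probe 1 read 74.2 and 73.5 on the GFP arrays, 47.4 and 45.0 on those of LT7 and 9.96 and 44.4 on those labelled ST7, of which only the second ST7 value was well above background. Probe 2 read 38.1 and 54.4 on the GFP arrays, 41.5 and 24.0 on those of LT7 and 2.85 and 3.14 on those labelled ST7. Probe 3, at 2.78 to 6.71, did not rise well above background anywhere. The ST7 replicates of probe 1 were further apart than those of any other member. Its call as higher after the shift (log2 change 2.59, SE 0.68, limma adjusted p = 0.0134) was lost without either GFP replicate, with quantile normalization (2.27) and with a percentile taken over the 11084 probes alone (0.65), and the change without scaling was -1.81. No fold is given for the other 2 probes. Probe 3 passed the test as higher after the shift (limma adjusted p = 9.56e-05) although neither group had a signal well above background, and without scaling its change was -0.37.

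Trim28, the corepressor that joins KRAB zinc finger proteins to SETDB1 and HP1, was bright in GFP and LT7 and dimmer but clearly measured in ST7. It read 10163 and 9589.7 on the GFP arrays, 12562 and 10260.4 on those of LT7 and 932 and 697 on those labelled ST7. Both LT7 values were above both GFP values, and both ST7 values were below all 4. Its mean signal was 12.1-fold lower in ST7 than in GFP before the shift (log2 change -3.62, called lower), and after the shift it was called higher by 0.78 on the log2 scale (SE 0.25, limma adjusted p = 0.0285). It was the only member that passed the test in opposite directions on these 2 scales. At percentile 21.3 of the 11084 probes it stood above the Cbx5 probes and below Setdb1. It was called lower with a percentile taken over the 11084 probes alone (-1.16) and with normexp background correction (-1.12), so its direction depended on both choices. Its call as higher was lost with quantile normalization (0.20), without either GFP replicate (0.70 and 0.87) and without ST7 replicate 1 (0.54).

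The lamina genes were all lower in ST7, after the shift and without scaling. Lmna, which encodes lamins A and C, gave signals near the top of the scanner's range in GFP and LT7. Probe 1 read 46483 and 46939 on the GFP arrays, 46184 and 49821 on those of LT7 and 606 and 594 on those labelled ST7. Probe 2 read 70058 and 69389 on the GFP arrays and 70054 and 71813 on those of LT7, all saturated, and 275 and 183 on those labelled ST7. Probe 3 read 64260.0 and 63412 on the GFP arrays, the second value saturated, 63759.5 and 65846 on those of LT7 and 189.7 and 180.5 on those labelled ST7. All 3 were still measured well above background in ST7, and in each the ST7 values lay far below the other 4. After the shift probe 1 fell 3.69-fold (log2 change -1.88, SE 0.22, limma adjusted p = 0.000435), probe 2 at least 14.7-fold (limma adjusted p = 7.36e-05) and probe 3 16.4-fold (limma adjusted p = 1.89e-05), the last with 1 of its 2 GFP values saturated. They stood at percentiles 8.44, 3.39 and 3.22 of the 11084 probes measurable on all arrays, lower than any other member in that set, and the places of probes 2 and 3 rest on saturated GFP spots.

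Lmnb1, the gene of lamin B1, read 1288 and 1495 on the GFP arrays, 4580.0 and 1185 on those of LT7 and 2.86 and 3.11 on those labelled ST7. Lbr, the gene of the lamin B receptor, read 1919.5 and 2219 on the GFP arrays, 4515 and 2103 on those of LT7 and 2.85 and 7.40 on those labelled ST7. Neither was well above background on an ST7 array, and in both LT7 replicate 1 was the highest of the 6 arrays. In ST7 Lmnb1 was called lower by at least 4.47-fold (limma adjusted p = 0.000993) and Lbr by at least 6.64-fold (limma adjusted p = 0.000683).

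Over the 18 probes, limma called 6 higher and 10 lower in ST7 than in GFP after the shift, and of all probes 70.7% were called higher and 19.8% lower. The fold rule of the study was read here as log2 ratios of 0.8 or more in every replicate with a mean above 1, because the scale of its fold changes is not given in the sources used here. It called 5 up and 10 down, against 70.7% and 19% of all probes. The median log2 change of the members was -1.55 and that of all probes 3.72. Without scaling 13 members were called lower and 0 higher, against 41.7% and 4.28% of all probes, and no member had a change above 0. The median was then -5.95, beside -0.68 for all probes and -3.88 for the probes with such a mark in both GFP replicates. To that last set 17 members belong, and 8 of the 18 had no ST7 signal well above background. The shift adds the same 4.40 log2 units to each of these medians. Cbx1 probe 1, Cbx3 probe 1, Setdb1 and Suv39h2 probes 1 and 3, called higher after the shift, had no call without scaling, and Trim28 was called lower. The members called lower after the shift, which were the 3 Lmna probes, Lmnb1, Lbr, Suv39h1, Cbx5 probes 1 and 3, Cbx1 probe 2 and Cbx3 probe 2, were called lower without scaling too.

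**Figure D2:**
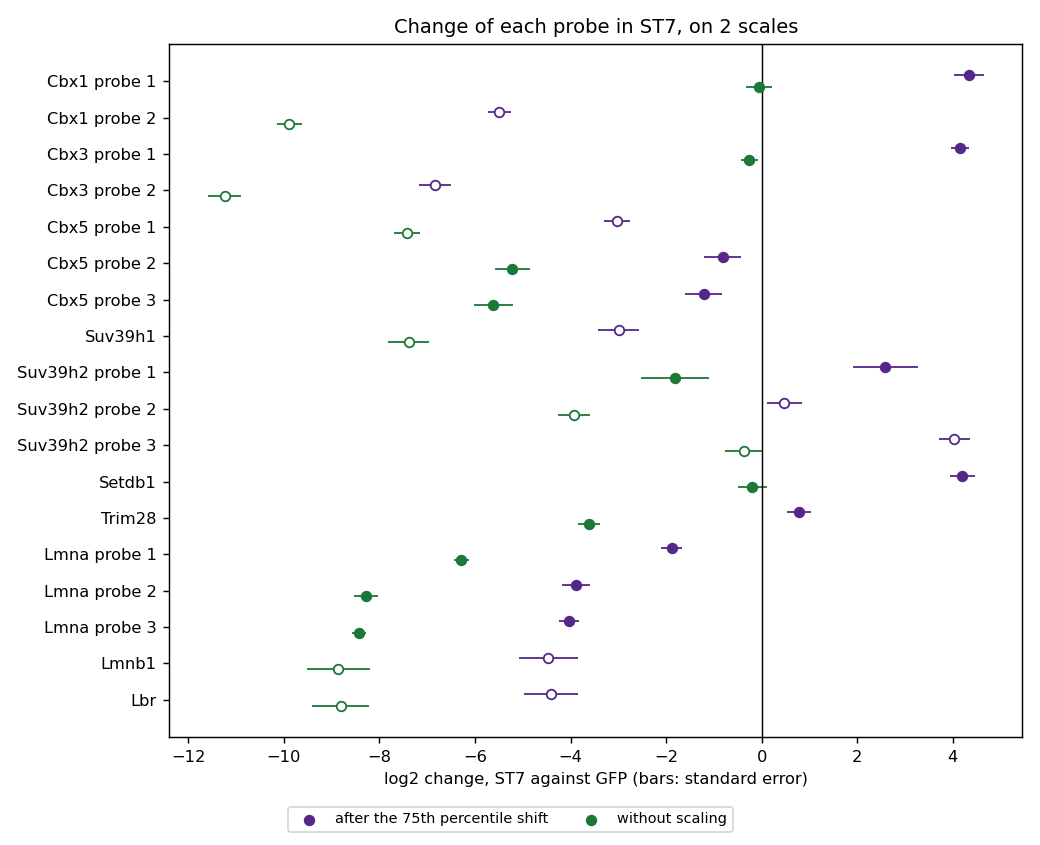
Log2 change of each member probe on the arrays labelled ST7 against GFP (mean of 2 arrays per group), after the 75th percentile shift and without scaling, with the standard error of the limma fit; open symbols mark probes well above background on neither ST7 array, whose change is set by the floor of the scanner. The points of a probe lie 4.40 log2 units apart, and Cbx1 probe 1, Cbx3 probe 1 and Setdb1 are near 0 without scaling.

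The RNA of the arrays labelled ST7 also differed from GFP in the markers of the cells. Of 10 fibroblast markers all 10 were detected in this sense in both replicates of GFP and of LT7, and 3 in both of ST7 (Col1a1, Col1a2 and Vim). The summed signal of the list was 288987 to 303033 in GFP, 332261 to 342215 in LT7 and 15034 to 16560.1 in ST7. Of 10 epithelial markers 3 (Epcam, Krt18 and Cldn3) were detected in both ST7 replicates, while Cdh1, Ocln, Cldn4, Esrp1 and Grhl2 were detected on none of the 6 arrays. The summed signal of the list was 123 to 204 in GFP, 147 to 195 in LT7 and 1937 to 2046 in ST7. Krt18 gave 1881 and 1755 of the ST7 sums, Cldn3 was detected in both GFP replicates too, and Krt8 went from 123 and 62.2 on the GFP arrays to 15.3 and 5.82 on those labelled ST7. After the shift 1 fibroblast marker (Vim) was called higher and 9 lower in ST7, where 72.3% of all gene names were called higher and 19.1% lower. Vim read 58774 and 57620 on the GFP arrays and 14612 and 16191.5 on those labelled ST7. Its log2 change was thus 2.48 after the shift and -1.92 without scaling. Of the 9 epithelial markers called higher, 6 were detected in neither group, and the median change of the list without scaling was 0.17. The part of these differences, and of the missing Sirt7 signal, in the changes of the members was not tested. In bulk RNA, fewer cells of a type and less RNA per cell cannot be told apart.

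In LT7 against GFP none of the 18 probes was called by limma, and none had an unadjusted p under 0.05. Of all probes 0.176% were called and 27.2%, or 16699, had such a p. In a fit of only the probes well above background on at least 2 arrays, 3385 had it. That set includes the 32116 probes well above background on both GFP arrays. The fold rule of the study called 0 members too, against 5.91% of all probes. The log2 changes ran from -0.58 (Suv39h2 probe 1) to 0.96 (Cbx5 probe 3), with a median of 0.23 beside 0.17 for all probes, and 14 of 18 were above 0. The 11084 probes measurable throughout had a lower median, 0.017. Without scaling the median was 0.13 in the members and 0.068 in all probes. It was -0.13 in the probes that carried the mark in both GFP replicates, as 17 members did. A p that misses the threshold with 2 arrays per group does not show that the levels were the same.

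Cbx5 probe 3 came nearest to a call in LT7. Both LT7 values, 3052 and 1667, were above both GFP values, 1373 and 1119, and the log2 change was 0.96 (SE 0.39, limma adjusted p = 0.195), at percentile 98.5 of the 11084 probes. The other Cbx5 probes did not show it, at 0.092 (SE 0.28) for probe 1 and 0.16 (SE 0.38) for probe 2, where the LT7 and GFP values overlapped. The range of 0.87 log2 units among the 3 probes was wider than in 88.7% of 5394 genes with at least 2 probes well above background on both GFP arrays. Without LT7 replicate 1 the change of probe 3 was 0.58. The groups did not overlap after the shift for 5 members that were higher in LT7 (Cbx1 probe 2, Cbx3 probe 2, Cbx5 probe 3, Suv39h2 probe 3 and Trim28) and 2 that were lower (Cbx3 probe 1 and Suv39h2 probe 1), and of all probes 37.9% and 14.9% did so. Suv39h2 probe 3 was well above background on no array. Without scaling it and Cbx1 probe 2 overlapped, which left 3 members higher and 2 lower.

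The LT7 replicates differed from each other in several members by more than the means of the lines did. Lmnb1 was 3.86-fold brighter in LT7 replicate 1 than in replicate 2, Lbr 2.15-fold and Cbx3 probe 2 1.92-fold, and Cbx1 probe 1 was 0.643 times as bright there. After the shift 12 of the 17 members well above background were higher in replicate 1, against 53.6% of all such probes. The median absolute gap between the LT7 replicates was 0.48 log2 units in the members and 0.35 in all such probes, and between the GFP replicates it was 0.23 and 0.25. The 7 members lost on both ST7 arrays had a median gap of 0.79 in favour of LT7 replicate 1, and the 9 that were kept one of 0.088; in all probes sorted in the same way the medians were 0.15 and -0.088. LT7 replicate 1 is the array with the separate scan and the high spike-in signal, whose part in these gaps was not tested. Without it the log2 change of Lmnb1 in LT7 went from 0.85 to -0.078, that of Lbr from 0.68 to 0.18, that of Cbx3 probe 2 from 0.63 to 0.21 and that of Suv39h1 from 0.31 to -0.087.

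**Figure D3:**
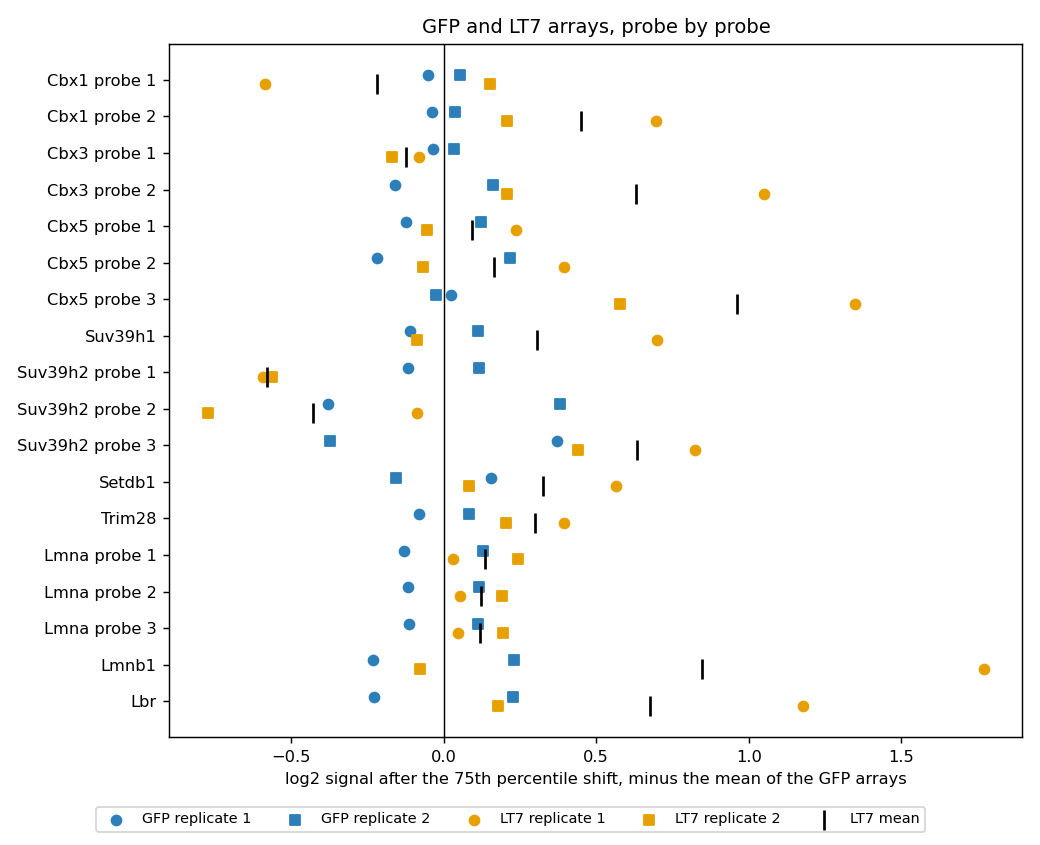
Log2 signal of each member probe on the GFP and LT7 arrays after the 75th percentile shift, minus the mean of the 2 GFP arrays; the black bar is the LT7 mean. Both LT7 arrays lie right of both GFP arrays for Cbx5 probe 3, while for Lmnb1, Lbr and Suv39h1 only LT7 replicate 1 does. The Lmna probes lie near 0, but probe 2 was saturated on both GFP and both LT7 arrays, so no change could be read from it. For Lmna probe 3, 1 GFP value was saturated.

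Set against LT7, which was made with the same construct, ST7 gave 5 members higher and 10 lower by limma after the shift. Of all probes 71% were higher and 19.7% lower, and here too most of those called higher were not well above background on both ST7 arrays. Against the LT7 mean, Lmnb1 was at least 8.03-fold lower (limma adjusted p = 0.000472), Lbr at least 10.6-fold (limma adjusted p = 0.000372) and Cbx5 probe 3 4.53-fold (log2 change -2.18, SE 0.39, limma adjusted p = 0.00287). That mean includes LT7 replicate 1, the array with the high spike-in signal. There Lmnb1 read 4580.0, Lbr 4515 and Cbx5 probe 3 3052, and on LT7 replicate 2 they read 1185, 2103 and 1667. Against LT7 replicate 2 alone each fold would be smaller. Trim28, called higher in ST7 than in GFP, was not called against LT7 (log2 change 0.48, SE 0.25, limma adjusted p = 0.119). This comparison and that with GFP share the ST7 arrays.

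How far probes of one gene differed in ST7 was measured over all genes with at least 2 probes well above background on both GFP arrays. Their log2 changes in ST7 against GFP had a median range of 2.85 within a gene, with quartiles of 0.92 and 5.43. The range was 9.83 for Cbx1 and 10.98 for Cbx3, wider than in 96.5% and 98.6% of the 5394 genes; in both the lower probe was not well above background in ST7, so the range is a limit. It was 2.21 for Cbx5, 2.15 for Lmna and 2.12 for Suv39h2 probes 1 and 2, all under the median, and in Cbx5 and Suv39h2 1 probe was likewise not measured in ST7. A kept and a lost probe under the same name, as in Cbx1, Cbx3 and Cbx5, occurred in 34.2% of these genes. In LT7 against GFP the 2 probes of Cbx1 differed by 0.67 and those of Cbx3 by 0.75, against a median of 0.25 over all genes.

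The number of stop-free frames, as counted in the printed sequences, went with the loss of signal in ST7 over the whole array. Of probes designed on NM_ accessions and well above background on both GFP arrays, 18.2% of 3274 with 0 stop-free frames were kept in ST7, 31.6% of 8672 with 1, 42.5% of 5340 with 2 and 55.6% of 825 with 3. The median log2 change without scaling was -6.49, -5.13, -4.01 and -2.72 in the same order. The order was the same within 4 ranges of GFP signal. GC content moved with the frames, from a median of 38.3% to 51.7%, and its part was not tested. Of the 17 members so marked in GFP, the 1 with 0 stop-free frames (Cbx3 probe 2) was not kept, against 4 of 8 with 1 and 5 of 8 with 2. Members with the same number of stop-free frames thus went both ways, as Cbx1 probe 1 and Lmnb1 with 2 each.

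**Figure D4:**
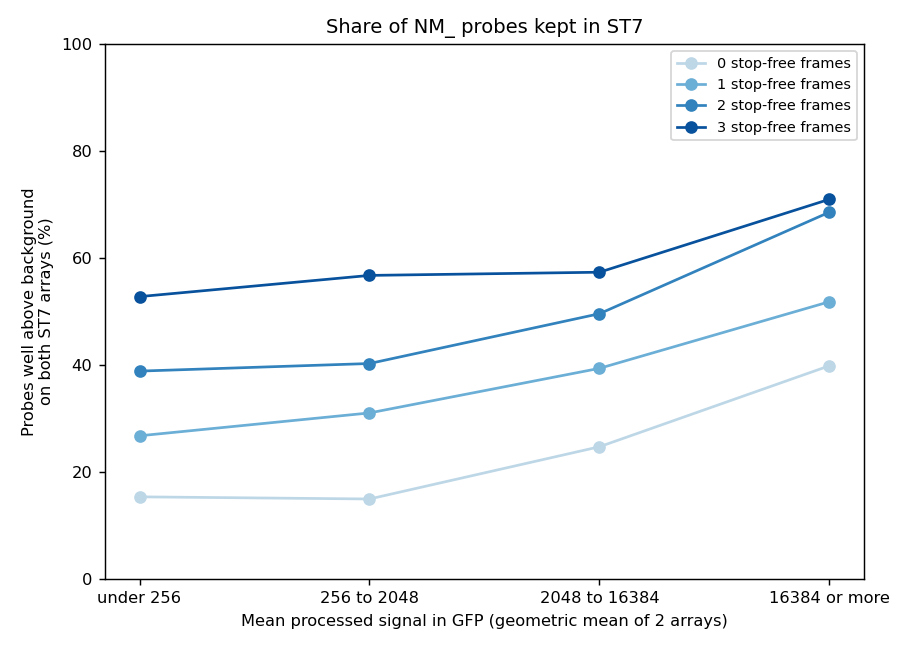
Percentage of probes designed on NM_ accessions that were well above background on both arrays labelled ST7, among those well above background on both GFP arrays, by the signal in GFP and by the number of forward frames without a stop triplet. The lines do not cross, from 14.9% to 39.8% of probes with 0 stop-free frames to 52.8% to 71.0% of those with 3. The last point of that upper line rests on 31 probes.

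To place the 10 genes among others of the same processes, 80 related genes were taken in 6 lists, of which 78 were on the array, each by its brightest probe. That probe had the highest mean signal over the 6 arrays, ST7 included, so a high ST7 signal could decide the choice. Other probes of the listed genes are not described here, and they can differ in ST7 as those of Cbx1 and Cbx3 did. In GFP 74 of the 78 were detected in both replicates, in LT7 73 and on the arrays labelled ST7 31. Of all gene names with such a signal in GFP, 41.8% kept it in ST7. In LT7 against GFP limma called 0 of the 78, with 8 at an unadjusted p under 0.05. Of all 50090 gene names it called 25 higher and 66 lower, and 27.2% of all probes, detected or not, had such a p. The fold rule called 1 up, Mecom, at a log2 change of 1.20 (SE 0.55, limma adjusted p = 0.252), against 3.1% of all gene names. In ST7 against GFP limma called 29 higher and 39 lower after the shift, of which 23 and 5 were kept in ST7, against 72.3% and 19.1% of all gene names, and without scaling 1 higher and 66 lower.

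Among 22 partners of HP1 and readers of heterochromatin, 7 were kept in ST7 and 14 were marked in neither replicate, and after the shift 7 were called higher and 14 lower. Of the 7 called higher 5 were kept in ST7, while Cdyl was detected in neither group and Zfp57 not in ST7, and of the 14 called lower 2 were kept (Cdyl2 and Daxx). The median log2 change was -3.07, beside 3.85 for all gene names. These sets are not alike in GFP, where 21 of the 22 genes but only 25250 of the 50090 gene names were detected in both replicates. Without scaling the 2 medians were -7.47 and -0.55. Over the probes of the array that were detected in both GFP replicates, the unscaled median was -3.88, nearer to that of the list. Chd4, the remodelling ATPase of the NuRD complex, was the 1 gene of the 78 whose brightest probe was called higher without scaling. It read 3459 and 3095 on the GFP arrays, 1253 and 3710.0 on those of LT7 and 33745 and 25612 on those labelled ST7, and its log2 change in ST7 was 7.57 after the shift (SE 0.57, limma adjusted p = 7.79e-05) and 3.17 without scaling. Atrx, a chromatin remodeller of heterochromatin, and Wiz, a zinc finger partner of the G9a and GLP enzymes, were called higher after the shift, at 4.79 and 3.70, and were at 0.40 and -0.70 without scaling. In LT7 the largest changes among the genes of the list well above background in both groups were Zfp57 at 0.68, Cdyl2 at 0.66 and Atf7ip2 at -0.62, none of which passed the test.

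Of 9 further genes of enzymes that write H3K9 and H4K20 methylation, 3 were kept on both ST7 arrays and 6 on neither, with 3 called higher (1 of them, Prdm16, not detected in ST7) and 5 lower after the shift and a median of -1.41. Ehmt1, which encodes GLP, read 2928 and 2814 on the GFP arrays and 2285 and 2637 on those labelled ST7. Its partner Ehmt2, which encodes G9a, read 18639 and 24686 on the GFP arrays and 33.8 and 30.9 on those labelled ST7. After the shift Ehmt1 was called higher by 4.17 (SE 0.26, limma adjusted p = 3.57e-05; without scaling -0.23), and Ehmt2 fell by 4.98 (SE 0.29, limma adjusted p = 2.77e-05; without scaling -9.38). Suv420h1, an H4K20 methyltransferase, was called higher after the shift (4.95) and stood at 0.55 without scaling. In LT7 Setdb2 was at 0.76 and Suv420h2 at 0.60, without a call.

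Of the DNA methylation genes 5 of 10 were kept in ST7, with 3 called higher and 6 lower after the shift and a median of -1.87. Dnmt1 and Uhrf1, the maintenance methyltransferase and its recruiter, were among the 5 lost in both ST7 replicates. Mbd3 was at -3.00 after the shift and Dnmt3a at 2.97, both called, and without scaling they were at -7.40 and -1.43. In LT7 the largest changes were Uhrf1 at 0.56, Mbd3 at -0.40 and Dnmt3a at -0.34. Of 10 H3K9 demethylase genes on the array 3 were kept, with 5 called higher (of which Jmjd1c and Kdm4d were detected in neither group and Phf2 not in ST7) and 2 lower and a median of 0.17. Phf8 was at 4.20, Kdm3b at 2.43 and Kdm4a at -0.37, the last without a call, and without scaling at -0.20, -1.97 and -4.77. In LT7 Kdm4b was at 0.76, Kdm3a at 0.70 and Kdm4a at 0.66, with no call. Kdm1a was not named on the array.

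The Polycomb chromobox genes, whose chromodomains resemble those of HP1 but bind H3K27 methylation, served as paralogs of the Cbx members. Cbx7 and Cbx6 were kept in ST7 and called higher after the shift, at 4.79 and 3.96, and without scaling they were at 0.40 and -0.44. Cbx2 and Cbx8 were lost in both ST7 replicates and were called lower. In LT7 Cbx7 and Cbx6 were at 0.30 and 0.44, with no call.

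Of 22 further genes of the lamina, the inner nuclear membrane and the LINC complex on the array, 10 were kept on both ST7 arrays and 11 on neither, with 8 called higher and 10 lower and a median of -0.91. Lmnb2 and Emd, the genes of lamin B2 and emerin, were among those lost in both. Nup153, a nuclear basket nucleoporin, read 1696 and 2034 on the GFP arrays and 2973 and 2973 on those labelled ST7 (log2 change after the shift 5.08, without scaling 0.68). Tmpo, the gene of the lamina-associated polypeptide 2 proteins, was at 2.74 and -1.65 on the same scales, and Lemd2, an inner nuclear membrane LEM protein gene, at -4.65 and -9.05. In LT7 Nup210 was at 0.81, Syne1, the gene of nesprin 1, at -0.70 and Lemd2 at 0.50, none of which passed. Syne3 was not named on the array.

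**Figure D5:**
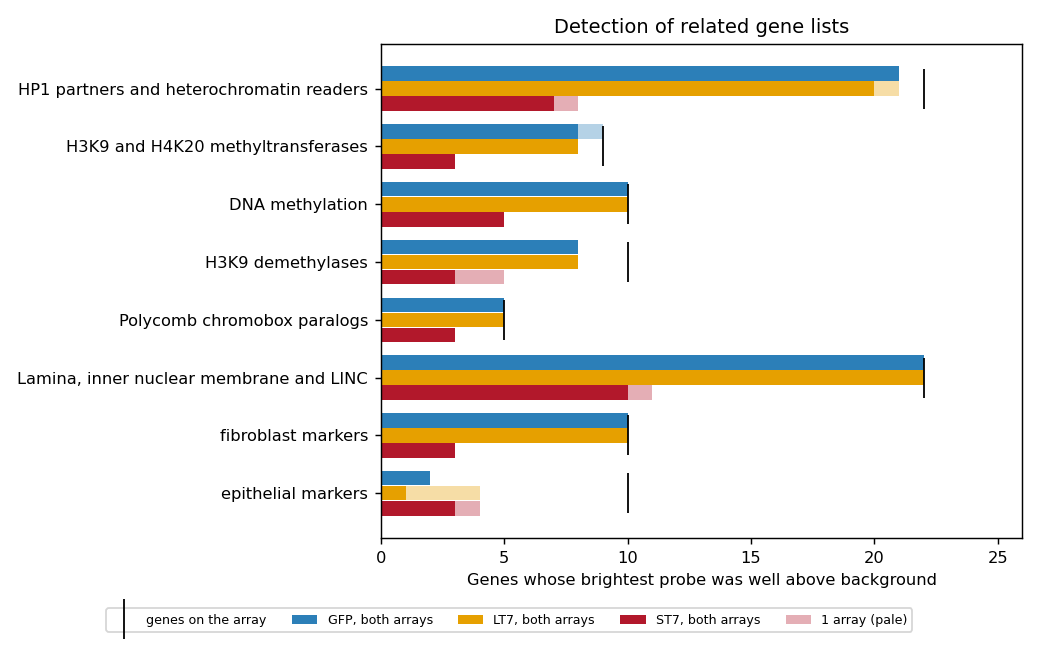
Number of genes of each list whose brightest probe was well above background in GFP, LT7 and ST7 (full colour: both arrays of the group, pale: 1 array); the black mark is the number of genes of the list on the array. The ST7 bars are shorter than the GFP bars in every list but the epithelial markers.

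The genes of the lists whose pattern over the 6 arrays was most like that of Cbx5 probe 3 were Cdyl2, Kdm4a and Daxx. Likeness was measured as the Euclidean distance between log2 values after the shift, each minus its own mean, over the 30 listed genes well above background on all 6 arrays, and was 0.87, 1.33 and 1.73. Cdyl2, a chromodomain Y-like protein gene, read 1501 and 1403 on the GFP arrays, 2392 and 1923 on those of LT7 and 31.4 and 34.5 on those labelled ST7, so that like Cbx5 probe 3 it was highest in LT7 replicate 1 and lowest in ST7. Kdm4a, an H3K9 and H3K36 demethylase gene, read 3619.7 and 3701, 6008 and 4869 and 144 and 125 in the same order, and Daxx, the gene of an H3.3 chaperone that works with ATRX, 4204 and 3888, 5392 and 3990.4 and 26.4 and 28.7.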

How the data were processed

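Total RNA of the 6 samples was labelled with Cy3 and hybridized to single-colour Agilent arrays on 1 slide. The deposited scanner files, made by the authors with Agilent Feature Extraction 10.5.1.1, hold 1 background-subtracted intensity per spot. A deposited table holds the authors' log2 values after a 75th percentile shift. After the median offset of each array from the recomputed values was removed, 5 to 13 probes per array differed by more than 0.01. The largest offset was -0.025, on ST7 replicate 2. Here outlier spots were dropped, the repeats of a probe averaged, log2 taken and the 75th percentile of the array subtracted. Limma 3.58.1 was fitted to the 6 arrays together, p-values were adjusted over all 61307 probes by the Benjamini-Hochberg method with a threshold of 0.05, and the procedure was tested on simulated data. Where a group had no array well above background, the fold limit used, per array, the higher of the probe's signal and the lowest signal marked well above background. The 10 accessions starting with NM_ matched a table of GRCm38.p6, and XM_990359 did not. All members were named, as were up to 3 genes per list and comparison with the largest change among those well above background in both groups, and 3 by likeness to Cbx5; some genes that this rule names are not reported here. A few further listed genes were named after their values were seen. The members and lists were chosen with earlier results of these data known. The number of arrays limits the precision, and alternatives in scaling, background, filters and samples were run.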

Additional observations from a re-analysis of the deposited data

Results flagged for a closer look

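The 4 spike-in RNA probes, which read RNA added in the laboratory and not RNA of the cells, were 4.11 log2 units higher on LT7 replicate 1 than on the mean GFP array, while the other arrays lay between -0.17 and 0.083. On the same array Lmnb1 was 3.86-fold and Lbr 2.15-fold brighter than on LT7 replicate 2. The part of that array's labelling or scan in these values was not tested.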

How the results depend on the processing

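Without scaling, no member was called higher in ST7 against GFP (0, main 6) or against LT7 (0, main 5), and the fold rule called 0 up in ST7 (main 5). Scaling on the spike-in RNAs gave 0, 0 and 0 for the same counts, and quantile normalization 3 and 3 for the limma counts. The members called lower in ST7 against GFP were 13 without scaling, 11 with spike-in scaling, 13 with a narrower percentile (taken over the 11084 probes measurable throughout), 10 with quantile normalization and 12 with normexp. The share of higher calls among all probes called was 78.1% after the shift, 66.6% with the narrower percentile, 57.3% with quantile normalization, 9.31% without scaling and 1.84% with spike-in scaling. In LT7 against GFP limma called 0 members under every alternative run; over all probes the count was 108 in the fit as described, 10593 with an intensity trend, 697 without LT7 replicate 2 and 0 without either GFP replicate. The fold rule called 1 member down in LT7 with spike-in scaling, and 0 to 4 up when 1 replicate was left out (4 without LT7 replicate 2, 1 without GFP replicate 1). Leaving out 1 replicate gave 4 to 6 members higher and 9 to 11 lower in ST7 against GFP, 5 to 6 and 10 to 11 against LT7, and 5 to 6 up and 9 to 11 down by the fold rule.

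With the mean of all probes of the gene, the log2 changes against GFP that turned sign were in ST7 Cbx1 probe 1 -0.57 and in LT7 Cbx1 probe 1 0.12. With spike-in scaling, the log2 changes against GFP that turned sign were in ST7 Cbx3 probe 1 -0.088, Suv39h2 probe 1 -1.64, Suv39h2 probe 2 -3.76, Suv39h2 probe 3 -0.20, Setdb1 -0.032, Trim28 -3.45 and in LT7 Cbx1 probe 2 -1.72, Cbx3 probe 2 -1.54, Cbx5 probe 1 -2.08, Cbx5 probe 2 -2.01, Cbx5 probe 3 -1.21, Suv39h1 -1.87, Suv39h2 probe 3 -1.54, Setdb1 -1.85, Trim28 -1.87, Lmna probe 1 -2.03, Lmna probe 2 -2.05, Lmna probe 3 -2.05, Lmnb1 -1.33, Lbr -1.49. On LT7 replicate 1 the spike-in RNAs were 4.11 log2 units above the mean GFP array. On LT7 replicate 2 they were 0.036 above it. Scaling on them therefore lowered the LT7 change of every probe by the same amount, which was less than 4.11. For Cbx1 probe 1 the change went from -0.32 without scaling to -2.39, and all 18 members were then below 0. These LT7 turns thus do not set single members apart. The fold-rule call in LT7 with this scaling carries the same lowering. Without scaling, the log2 changes against GFP that turned sign were in ST7 Cbx1 probe 1 -0.059, Cbx3 probe 1 -0.26, Suv39h2 probe 1 -1.81, Suv39h2 probe 2 -3.93, Suv39h2 probe 3 -0.37, Setdb1 -0.20, Trim28 -3.62 and in LT7 Cbx5 probe 1 -0.0068. With the narrower percentile, the log2 changes against GFP that turned sign were in ST7 Suv39h2 probe 2 -1.47, Trim28 -1.16. With quantile normalization, the log2 changes against GFP that turned sign were in ST7 Suv39h2 probe 2 -2.66. With normexp, the log2 changes against GFP that turned sign were in ST7 Trim28 -1.12. With 1 replicate left out in turn, signs turned in LT7 against GFP for Cbx1 probe 1 (-0.59 to 0.15), Cbx5 probe 1 (-0.055 to 0.24), Cbx5 probe 2 (-0.067 to 0.40), Suv39h1 (-0.087 to 0.70), Lmnb1 (-0.078 to 1.77).

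Deviations of the same replicate number correlated at 0.086 between GFP and LT7, 0.33 between GFP and ST7 and -0.03 between LT7 and ST7. The main fit did not pair the samples, and these values cannot show that no pairing existed. With the replicate block, members called in ST7 against GFP stayed at 6 higher and 10 lower, those against LT7 at 5 and 10, and 0 of all probes were called in LT7 against GFP. Of the 638 other values recomputed for single members, 559 kept their direction and their side of the threshold. The cause of the changes was not tested. In ST7 the signal over background limits the members, since 8 of 18 probes have only an upper limit there.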
